A study of Arabidopsis thaliana with 12 samples.

Results

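The mRNAs described here are the 100 nuclear mRNAs of Arabidopsis seedlings that carried the most ribosome footprints for their RNA level, out of 9600 nuclear genes that were long and abundant enough to be ranked. Ribo-seq reads the short pieces of mRNA that lie inside a ribosome and survive nuclease digestion (footprints), while RNA-seq, here of total RNA after removal of rRNA, gives the level of the RNA itself. For each nuclear gene with a coding length of at least 600 nucleotides and at least 500 RNA-seq counts, 0.1 was added to the TPM of each assay, the Ribo-seq value was divided by the RNA-seq value, and the 100 genes with the highest log2 ratios were selected. TPM is a count divided by the length of the gene and scaled to the sum of the library. Because this measured ratio chose the members, their ratios are a description and were not tested. Genes with identifiers that start with ATCG, ATMG or AT2G07 were left out beforehand, although AT2G07 genes lie on a nuclear chromosome. The remaining genes are called nuclear here, and the filters kept 9600 of these 27321 measured genes.

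Both assays used Col-0 wild-type seedlings grown for 7 days in shaken liquid medium, with 6 Ribo-seq and 6 RNA-seq libraries. All seedlings were mock-treated with 0.1% DMSO, the solvent of a larger experiment, added 3 hours after lights on, and were harvested 20 or 60 minutes later. The lysis buffer of both assays held cycloheximide, which arrests cytosolic ribosomes, and chloramphenicol, which arrests those of plastids and mitochondria. In the deposited tables the libraries of an assay are merged into a single value per gene, so no spread between replicates can be given. The intervals of ratios below cover counting error only. Those of shares of genes treat genes as independent draws and are a description. The Ribo-seq table sums to 299584069 expected counts and the RNA-seq table to 51390094. The description field of the Ribo-seq libraries names root while their titles name seedlings. Leaf and root markers were both present in both assays. The leaf gene RBCS1A had 9676.3 TPM in Ribo-seq and 7469.8 TPM in RNA-seq, and the root gene PYK10 had 4634.3 TPM in Ribo-seq and 3121.2 TPM in RNA-seq. In such whole seedlings, fewer cells of a type and less RNA per cell cannot be told apart.

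An mRNA gains footprints when more ribosomes start on it and also when each ribosome takes longer to finish, and the ratio cannot tell these apart. The 5′ leader (the stretch before the coding sequence) is known to set how often ribosomes start: an ATG in it can divert them, and the bases at −3 and +4 around the start codon affect how well it is recognised. Within the coding sequence, ribosomes add proline slowly, and runs of proline need the factor eIF5A in yeast. The most prominent proline-rich products in plants are the extensins, rod-like glycoproteins of the cell wall built of serine-proline repeats that are cross-linked outside the cell.

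The coding sequences below are shown because cell wall proteins of simple repeats led the ranking. Each line gives the window of 30 codons with the most codons of the counted kind, from the TAIR10.1 genome and RefSeq annotation, 5′ to 3′ on the coding strand. Capitals mark CCN codons (N is any base), which encode proline, in all genes but DOT1, where they mark GGN codons, which encode glycine. LRX3, which carries an extensin domain behind leucine-rich repeats, is shown as a proline-rich gene that was not among the 100.
EXT6: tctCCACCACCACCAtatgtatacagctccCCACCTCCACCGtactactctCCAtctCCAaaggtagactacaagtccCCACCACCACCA
EXT3: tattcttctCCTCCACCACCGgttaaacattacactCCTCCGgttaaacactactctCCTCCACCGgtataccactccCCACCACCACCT
AT2G43150: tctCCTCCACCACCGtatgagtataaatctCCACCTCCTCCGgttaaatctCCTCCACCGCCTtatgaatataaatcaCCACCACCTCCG
PRP3: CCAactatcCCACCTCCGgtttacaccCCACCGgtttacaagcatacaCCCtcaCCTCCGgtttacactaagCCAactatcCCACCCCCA
PRP1: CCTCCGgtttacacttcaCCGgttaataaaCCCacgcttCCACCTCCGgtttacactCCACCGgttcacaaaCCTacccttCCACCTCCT
DOT1: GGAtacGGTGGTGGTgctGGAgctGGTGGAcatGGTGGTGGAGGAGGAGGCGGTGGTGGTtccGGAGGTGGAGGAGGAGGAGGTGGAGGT
LRX3: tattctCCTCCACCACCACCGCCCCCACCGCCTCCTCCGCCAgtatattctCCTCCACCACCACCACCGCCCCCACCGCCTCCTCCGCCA
In EXT6 (chromosome 2, 10622666 to 10622755, plus strand) 14 of the 30 codons are CCN, in EXT3 (chromosome 1, 7454809 to 7454898, minus strand) 13 and in AT2G43150 (chromosome 2, 17945995 to 17946084, plus strand) 16. PRP3 (chromosome 3, 23182967 to 23183056, plus strand) and PRP1 (chromosome 1, 20505087 to 20505176, plus strand) hold 13 each. Both windows have single proline codons and runs of up to 3 where the extensins have runs of 4. The DOT1 window (chromosome 2, 15166071 to 15166160, plus strand) holds 25 GGN codons, and the LRX3 window (chromosome 4, 7759954 to 7760043, plus strand) 25 CCN codons.

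The members' ratios ran from 1.43 to 3.20 with a median of 1.61, against a median of 0.16 for the other 9500 eligible genes and of 0.17 for all 9600. On the linear scale the lowest member had 2.70 times as much Ribo-seq TPM as RNA-seq TPM, the median member 3.05 times and the highest 9.19 times. The 100 members are 1.04% of the eligible genes by construction, and 608 genes, or 6.33%, had a ratio of at least 1. TPM includes the plastid genes, which took 3.16% of the footprints and 27.8% of the RNA-seq counts, so the zero of the ratio depends on the scaling. With TPM rescaled to nuclear genes alone, a setting chosen after seeing the data, the ratio of every gene fell by about 0.45, and the median was 1.15 for the members and -0.28 for all eligible genes. So even a shift hardly changes the order of genes, so that all 100 members stayed follows from the setting itself. The members took 2.00% of all nuclear footprints and 0.747% of all nuclear RNA-seq counts. Only 18 members had a ratio of at least 2, while 63 lay between 1.5 and 2 and 19 below 1.5, so most of the list sits in a dense zone near its lower edge.

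**Figure D1:**
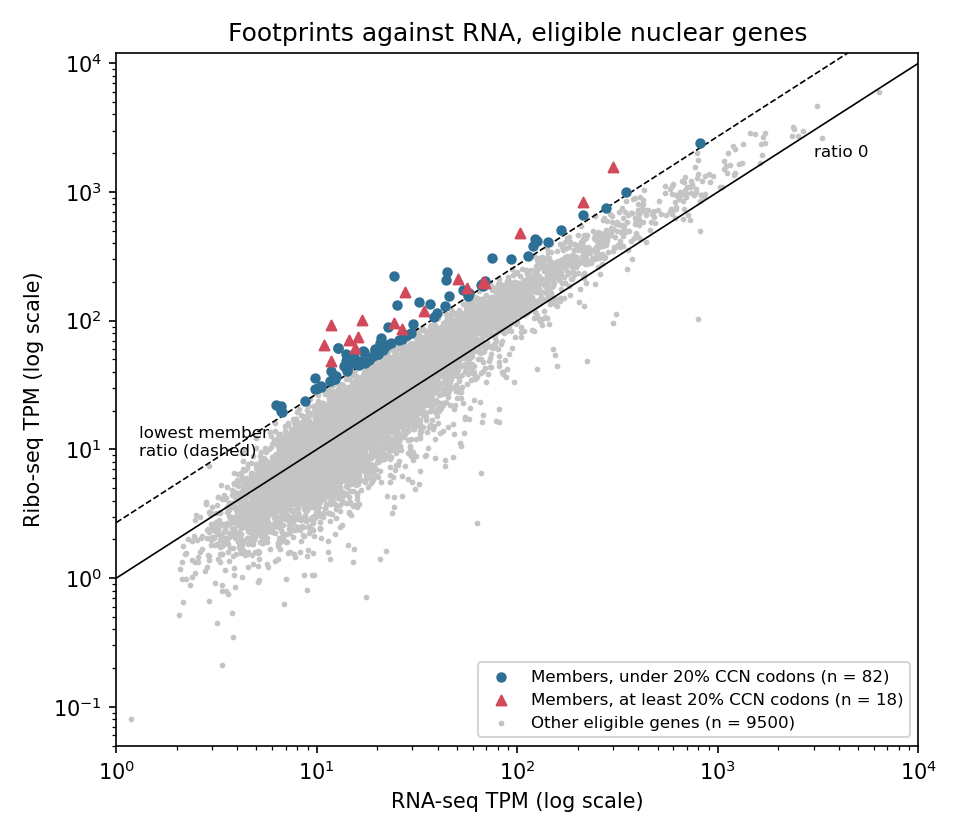
Ribo-seq TPM against RNA-seq TPM, both on log axes, for the 9600 eligible nuclear genes. The 100 members lie on or above the dashed line of the lowest member ratio, 1.43, and span RNA-seq levels from 6.24 to 811.12 TPM, and triangles mark the 18 members with at least 20% proline codons.

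The lower edge falls within counting error. Just inside it lay SWEET17, a vacuolar fructose transporter, AT3G58660, a protein of the ribosomal L1p family, the glycine-rich RNA-binding protein GR-RBP5 and the phosphotriesterase-like AT3G57010, all at 1.44, and ERD2B, a receptor that returns proteins to the endoplasmic reticulum, at 1.43. Just outside lay the mannose-binding lectin AT1G52050 at 1.43 and AT5G62290, AT1G19740, AT3G22660 and the iron superoxide dismutase FSD1, all at 1.42. The 95% counting interval of ERD2B ran from 1.34 to 1.53 and that of AT1G52050 from 1.33 to 1.52. For 76 members the interval lay wholly above the ratio of AT1G52050, for 24 it reached it, and 39 genes outside the list had an interval that reached the ratio of ERD2B.

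The gene with the highest ratio was DOT1 (AT2G36120, chromosome 2), a glycine-rich protein named after a mutant with altered leaf veins. It had 55891 footprints and 934 RNA-seq counts, or 222.77 TPM in Ribo-seq and 24.16 TPM in RNA-seq, a ratio of 3.20 (95% counting interval 3.11 to 3.29). Glycine codons made up 59.4% of its coding sequence, against a median of 6.48% in the other eligible genes. Of the 8 eligible genes annotated as glycine-rich proteins it was the only member, beside 1.04% of all eligible genes. The ratios of these 8 genes ran from -1.42 to 3.20.

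**Figure D2:**
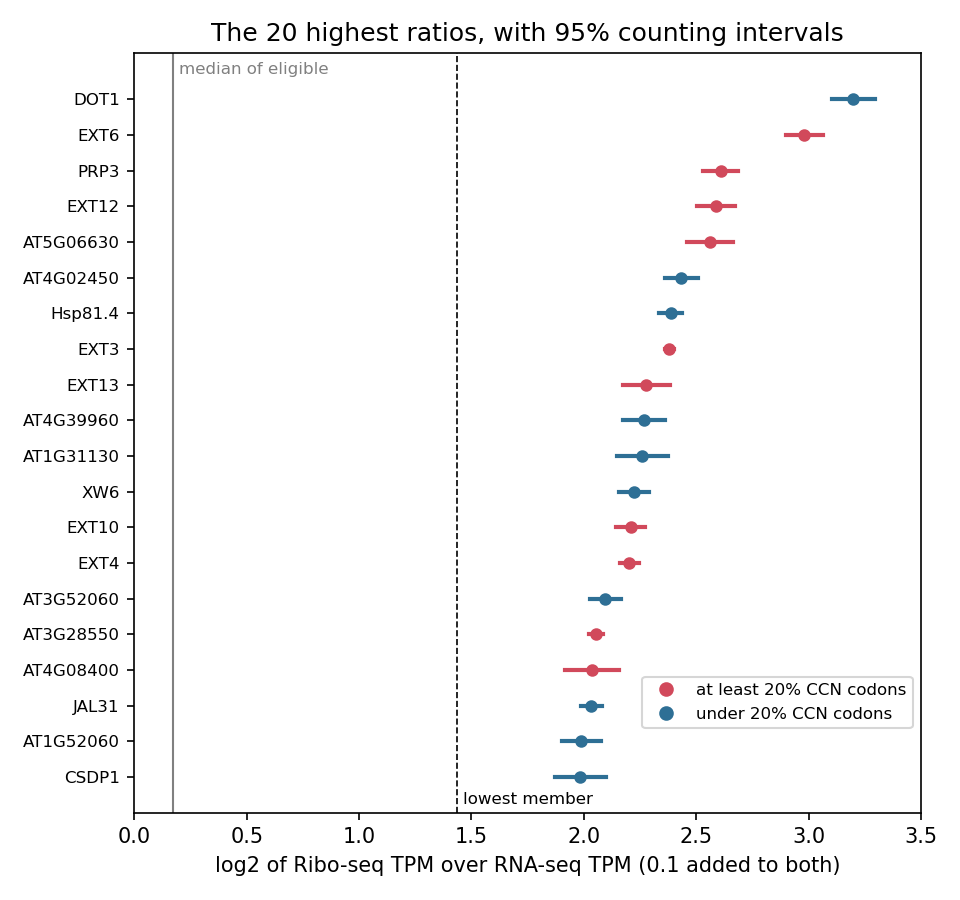
The 20 highest log2 ratios (points) with 95% counting intervals (lines), highest at the top. Of these genes 10 have at least 20% proline codons, and all 20 intervals lie above the lowest member ratio (dashed, 1.43) and far above the median of all eligible genes (grey, 0.17).

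Extensins and related proline-rich proteins formed the largest single family. Their coding sequences can be recognised without the ratio by their share of CCN codons, so all eligible genes with at least 20% of them were listed, a limit chosen after the values had been seen. There were 34 such genes among the 9600, and 18 of them were members, beside 1.04% of all eligible genes. The median ratio was 2.05 in these 18 members and 0.95 in the other 16, and 10 of the 18 were among the 20 highest ratios of all. EXT6 (AT2G24980) had 51356 footprints and 1172 RNA-seq counts and a ratio of 2.98. PRP3 (AT3G62680), a proline-rich protein of root hairs, had 52146 footprints and 1382 RNA-seq counts and a ratio of 2.61. EXT12 (AT4G13390) followed at 2.59 and AT5G06630 at 2.56. The family thus filled the places just below DOT1.

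EXT3 (AT1G21310), the extensin required for an intact cell plate in the embryo, had the highest Ribo-seq TPM of the 34 genes and the highest RNA-seq TPM of the 18 members. It had 670598 footprints and 22111 RNA-seq counts, or 1560.7 TPM in Ribo-seq and 299.82 TPM in RNA-seq, a ratio of 2.38 (2.36 to 2.40). AT2G43150, another extensin, had 836.54 TPM in Ribo-seq and 211.89 TPM in RNA-seq (1.98), and EXT4 had 476.73 TPM in Ribo-seq and 103.53 TPM in RNA-seq (2.20). High ratios in this family were therefore found at high and at low RNA levels, since EXT6, AT5G06630 and AT4G08400 had only 11.71, 10.84 and 11.76 RNA-seq TPM. EXT13, EXT10, AT3G28550 and AT4G08400 had ratios of 2.28, 2.21, 2.06 and 2.04, and the remaining extensins AT1G23720, HRGP1 and AT3G54580 of 1.98, 1.81 and 1.67. PRP1, which like PRP3 acts in root hairs, had a ratio of 1.97. The other members with so many proline codons were AT4G16380, annotated as a heavy metal transport protein (1.71), AT5G15780, of the pollen allergen and extensin family (1.57), and AT5G14920, of the gibberellin-regulated family (1.51).

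**Figure D3:**
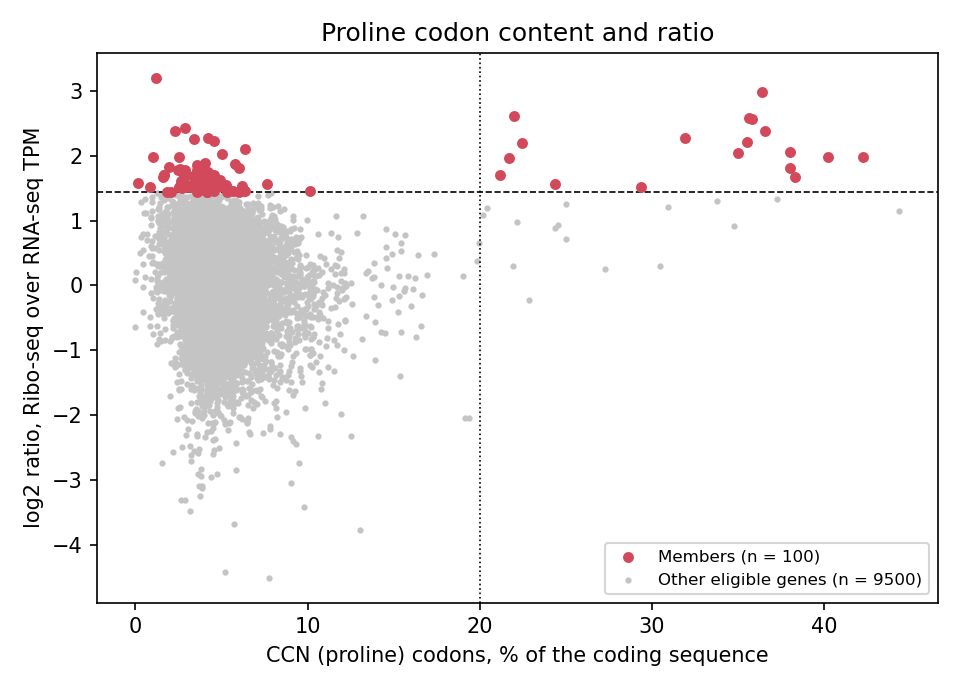
Log2 ratio against the share of CCN (proline) codons in the coding sequence for 100 members and 9500 other eligible genes. To the right of the dotted line at 20% lie 34 genes, of which 18 are above the dashed line of the lowest member, whereas genes from 8% to 20% include 1 member.

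A high share of proline codons did not always go with a high ratio. Among the 16 proline-rich genes outside the list were the wall proteins PRP4 (1.20) and CWLP (1.29), the arabinogalactan proteins AGP31 (1.25) and AGP18 (0.30), and the leucine-rich repeat extensins LRX1 (0.93), LRX2 (0.89) and LRX3 (0.29). The members had runs of at most 6 CCN codons, and LRX3 has one of 13. The spliceosome protein smB, with 22.9% CCN codons, had the lowest ratio of the 34, -0.23. Over all eligible genes the relation was not a steady one: the median ratio was 0.24 for genes with 2% to 4% CCN codons, -0.15 from 8% to 10%, -0.18 from 10% to 15%, 0.03 from 15% to 20%, and 1.54 at 20% or more. The 505 eligible genes with a run of at least 4 CCN codons had a median ratio of -0.11, against 0.18 for the others. Of them 20 were members, beside 1.04% of all eligible genes, and 17 of these 20 belong to the 18 proline-rich members. What the rate of proline addition contributes to these values was not tested.

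Members and non-members of the proline-rich set differed in how repetitive they are. In the 18 members the median share of 28-base words that occur again within the same coding sequence was 21.8%, and the median number of runs of 4 or more CCN codons was 24. In the 16 others these values were 1.95% and 4.5. Of all eligible genes 13 had at least 20% of such repeated words, and 10 of these were members, beside 1.04% of all eligible genes. How reads that fit several places were kept or dropped is not stated by the submitters. Expected counts were whole numbers in all 100 members. The part of such repeats in these ratios was not tested. In the 18 proline-rich members, pooled over genes, the codon CCA made up 61.4% of 3104 CCN codons, against 33.5% in the other 9500 eligible genes. Codon shares of the 16 proline-rich genes outside the list were not counted apart.

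Chaperones made up the next group at the top. AT4G02450, a p23-type co-chaperone of HSP90, had 240.40 TPM in Ribo-seq and 44.39 TPM in RNA-seq, a ratio of 2.43. Hsp81.4 (AT5G56000), a cytosolic HSP90, had 132.07 TPM in Ribo-seq and 25.19 TPM in RNA-seq, a ratio of 2.39. AT3G12050, whose Aha1 domain stimulates the ATPase of HSP90 in yeast, had a ratio of 1.72. An HSP90 and these partner proteins were thus on the list, a grouping made after the values had been seen. The more abundant HSP90 genes HSP81-2 and HSP81-3 were not, with ratios of 0.87 and 0.79. Of the 28-base words of Hsp81.4, 38.2% occur in other genes. Summed with HSP81-3, which had more RNA-seq TPM and a lower ratio, it stood at 1.08, below the lowest member. The DnaJ-type co-chaperone AT4G39960 reached 2.27, with 61.72 TPM in Ribo-seq and 12.74 TPM in RNA-seq. Further members were the prefoldin-like AT5G27330 (1.58), the chloroplast chaperonin subunit Cpn60beta2 (1.51) and the trigger factor AT5G55220 (1.46). By product name 6 of 146 eligible chaperones were members, beside 1.04% of all eligible genes, and the group had a median of 0.42.

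Lectins and nitrile specifier proteins formed another cluster by product name. Some of them act in the glucosinolate and ER-body defence of crucifers. The names also take in D-mannose binding lectins with an Apple-like domain, such as AT1G78860, for which no such role is claimed here. JAL31 (AT3G16430), a jacalin-related lectin, had 306.55 TPM in Ribo-seq and 74.78 TPM in RNA-seq (2.03), and AT1G52060, a mannose-binding lectin, had 90.12 TPM in Ribo-seq and 22.65 TPM in RNA-seq (1.99). AT1G78860 (1.86), NSP4 (1.75), NSP5 (1.71) and AT1G52070 (1.52) were also members. Of 24 eligible genes with such product names, a family put together after the values had been seen, 6 were members and 21 lay above the median of all eligible genes. Members are 1.04% of all eligible genes. The most abundant of them, PBP1, whose product binds the β-glucosidase PYK10, was not a member at 0.74.

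Among signalling proteins, 3 of the 9 eligible 14-3-3 proteins, which bind phosphorylated partners, were members, beside 1.04% of all eligible genes. This family was put together after the values had been seen. GRF10 had 431.02 TPM in Ribo-seq and 121.82 TPM in RNA-seq (1.82), GF14 PHI a ratio of 1.68 and GRF8 one of 1.67. The other 6 lay between 0.71 and 1.24, so that all 9 were above the eligible median of 0.17. That median is not matched for length. The 3 members fall in the range from 600 to under 900 nucleotides, where the median of eligible genes was 0.48. PYL4, a receptor of abscisic acid, had a ratio of 1.49 and 316.52 TPM in Ribo-seq against 112.88 TPM in RNA-seq.

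Members that make or handle RNA included the RNA-binding cold shock protein CSDP1 (1.98), the splicing factor ATO (1.82), the Alba protein AT1G20220 (1.80), NRPB5, a subunit of RNA polymerase (1.70), and ATRZ-1A, with 77.91 TPM in Ribo-seq and 27.50 TPM in RNA-seq. A group put together after the values had been seen held 21 eligible genes whose names point to ribosome assembly or the nucleolus. Of these, 3 were members, beside 1.04% of all eligible genes. They were the nucleolar phosphoprotein AT5G57120 (1.71), the MAK16-like AT1G23280 (1.61) and the KRR1 family protein AT3G24080 (1.52). The 21 genes ran from -0.95 to 1.71 with a median of 0.35, and 14 lay above the eligible median of 0.17. Of 113 eligible ribosomal proteins by product name 4 were members (3.54%). These were XW6 at 2.22, NFD1, a mitochondrial L21 protein, at 1.56, AT2G18110, which is an elongation factor EF1B subunit, at 1.55, and AT3G58660. XW6, a small-subunit protein of the S5 family, was the only one of these above 2, while the group had a median of 0.57. Transcription factors lay at the other end, with a median of -0.35 over 546 genes. Their single member by name was ATRZ-1A, an RNA-binding protein with a zinc knuckle, and the factor LBD39 (1.46) was not caught by the wording of the group.

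Enzymes and transporters were spread over several groups, and members are 1.04% of all eligible genes. The redox and detoxification group had 8 members of 577, among them the peroxidases AT5G51890 (1.88) and AT1G34510 (1.64) and the glutathione S-transferases GSTF7 (1.57), GSTU26 (1.46) and GSTU19 (1.45). The small-molecule group had 8 members of 1071 (0.747%), led by AT3G52060, a glycosyltransferase (2.10), and QPT of NAD synthesis (1.78), and it included IGMT2, an indole glucosinolate methyltransferase (1.52). Transporters by name had 3 members of 345 (0.870%), which were SWEET12, which exports sucrose (1.60), the phosphate transporter PHT1;2 (1.58) and the nucleotide-sugar transporter AT4G32390 (1.58). The lipid group, with 2 of 314 (0.637%), held the sterol oxidase SMO1-1 (1.49) and the acyltransferase AT2G39020 (1.46), and the protease group, with 2 of 593 (0.337%), held the papain-like AT3G19400 (1.57) and AT3G43960 (1.53). AT2G18690 (1.78) and AT5G62440 (1.53) led the 3 members with no function in the product name.

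Of 17 function groups defined by words in the product name, 15 held a member. The cell wall group held 18 members of 396 genes (4.55%), of which 16 were extensins or proline-rich proteins. The rest were DOT1 and GR-RBP5, an RNA-binding protein caught by the word glycine-rich in its name. Chaperones had 4.11%, ribosomal proteins 3.54%, redox enzymes 1.39%, photosynthesis and chlorophyll 1.15% with PSAD-1 alone, RNA and chromatin proteins 1.09% and the kinase and receptor group 1.06%. The last of these held 11 members, but its leading ones were the lectins JAL31, AT1G52060 and AT1G78860, ahead of NDPK3, a nucleoside diphosphate kinase (1.64). Respiration with 113 genes and cytoskeleton and membrane traffic with 290 genes held 0 members, with group medians of 0.33 and 0.22. The group of products with other names held 25 members of 2837 genes. With 1.04% of all eligible genes selected, these counts are given as a description of the list.

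The members were short. Their coding length had a median of 969 nucleotides and ran from 609 to 2874, against a median of 1461 in the other eligible genes. Of the members 53% were under 1000 nucleotides long, against 21.6% of the others. The shortest were AT5G62440 with 609, NRPB5 with 618 and PYL4 with 624 nucleotides, and the longest were the extensins AT3G54580 with 2874, AT3G28550 with 2770.1 and AT1G23720 with 2741.6. Without the 18 proline-rich members the median was 946.5. Over all eligible genes the median ratio was 0.48 for the 1505 genes from 600 to under 900 nucleotides and -0.47 for the 896 genes of 3000 nucleotides or more, none of which was a member. Length also enters both TPM values through the effective length, which is 186.41 nucleotides below length in RNA-seq and 27 below it in Ribo-seq. The larger subtraction in RNA-seq lowers the ratio of short genes relative to long ones. With whole coding lengths the members' median lay 1.55 above that of all eligible genes, against 1.44 with effective lengths.

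RNA levels of the members covered most of the range of the eligible genes. Their median RNA-seq level was 21.5 TPM, against 17.2 TPM in the other eligible genes, and their median Ribo-seq level was 71.8 TPM, against 18.6 TPM in the others. The 5 highest in RNA-seq were PSAD-1, a photosystem I subunit that docks ferredoxin, with 811.12 TPM, DR4 with 347.07 TPM, EXT3 with 299.82 TPM, GSTU19 with 275.69 TPM and NDPK3 with 212.47 TPM. PSAD-1 had 2405.9 TPM in Ribo-seq and a ratio of 1.57, DR4 had 1000.1 TPM in Ribo-seq and one of 1.53. At the low end, ATO had 22.33 TPM in Ribo-seq and 6.24 TPM in RNA-seq. Members were 8 of the 2310 eligible genes under 10 RNA-seq TPM (0.346%), 37 of 3167 from 10 to 20 TPM (1.17%), 29 of 2637 from 20 to 50 TPM (1.10%), 13 of 841 from 50 to 100 TPM (1.55%), 13 of 614 from 100 to 1000 TPM (2.12%) and 0 of 31 above that. The median ratio of all eligible genes was -0.20 under 10 TPM and 0.61 from 100 to 1000 TPM, and RNA-seq TPM is itself part of the ratio. The count filter also ties these bins to coding length, because a gene of low TPM reaches the required RNA-seq count only if it is long. Short genes, which had higher ratios, can therefore hardly enter the lowest bin. The bins were not matched for length, and a relation to RNA level apart from length was not tested. In raw RNA-seq counts the members were lower, with a median of 1047.5 against 1433, and 45% of them, against 33.1% of the others, had under 1000. RNA-seq is the denominator of the ratio, so a low count there widens the counting interval of the ratio. The widest interval of a member spanned 0.26 on the log2 scale, and 95 of the 100 stayed on the list when genes were ranked by the lower end of the interval.

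The leaders of the members, taken from the annotated isoform nearest in coding length, were also short and often free of ATG. The median leader was 171.5 nucleotides long in the members and 210 in the other eligible genes, and 59.5 in the 18 proline-rich members. A leader without any ATG was found in 54% of the members (95% exact binomial interval 43.7% to 64.0%), against 35.3% of the others (34.3% to 36.3%). Of these members 3 have no annotated leader at all. The share was 52.4% without the proline-rich members. Over all eligible genes the median ratio was 0.36 with 0 ATGs in the leader, 0.19 with 1, 0.04 with 2, 0.02 with 3, -0.16 with 4 and -0.26 with 5 or more. Members with many leader ATGs did occur. AT1G23720 had 10, AT5G14920 had 9, ADK1, an adenosine kinase with a ratio of 1.61, had 7, and JAL31 had 6.

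Start contexts are shown for the 10 highest-ratio members with a leader of at least 10 bases, because the bases at −3 and +4 can be compared by eye. Each line gives 10 bases before the start codon, the start codon and 3 bases after it, from TAIR10.1, 5′ to 3′. Capitals mark the base at −3, the ATG and the base at +4.
DOT1: agagtgaAacATGGct
EXT6: aataggtGtaATGAga
PRP3: gcgctcaGcaATGGcg
EXT12: tacgggtAagATGAta
AT5G06630: aaagagtGtgATGAga
AT4G02450: tccagtaAacATGAgt
Hsp81.4: atcaacgAtaATGGcg
EXT3: aaaacaaCcaATGGgg
EXT13: gacgagtAcaATGAga
AT4G39960: cgggagtGtaATGGct
All but EXT3 have a purine (A or G) at −3, and the extensins EXT6, EXT12, AT5G06630 and EXT13 have A at +4. Over the whole list, A at −3 was found in 61% of the members (50.7% to 70.6%), against 47.8% of the other eligible genes, and a purine there in 79% of the members against 73.4%. GC at +4 and +5 was found in 39% of the members (29.4% to 49.3%), against 25.6% of the others. G at +4 alone was as frequent in the members as in the others, at 57% (46.7% to 66.9%) against 57.9%.

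**Figure D4:**
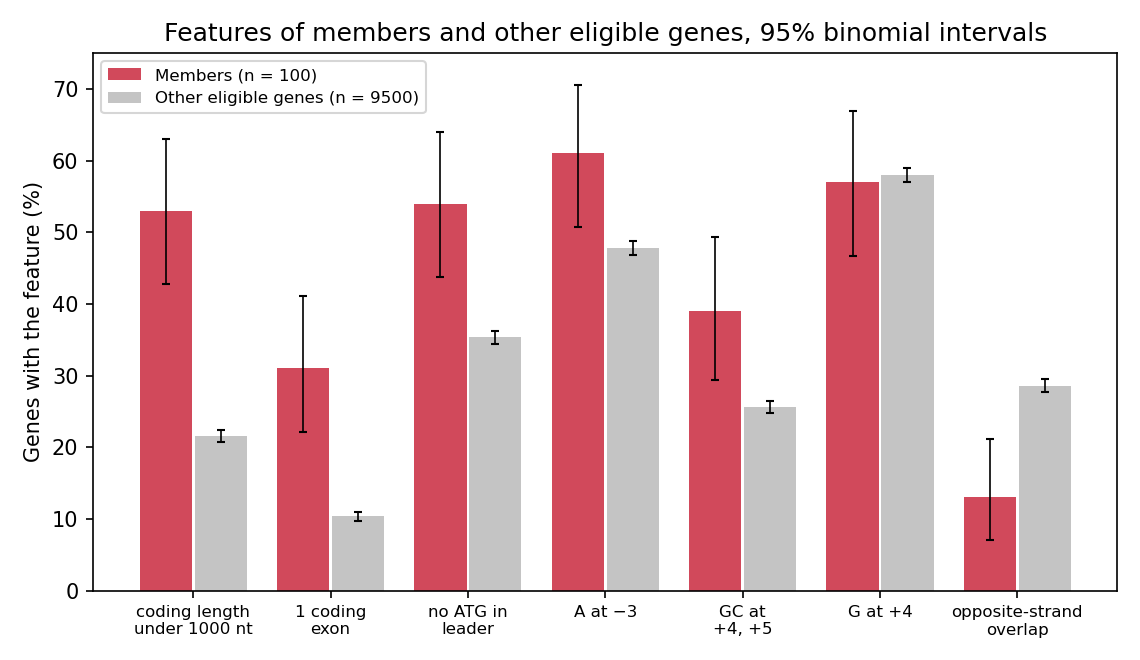
Share of genes with each feature in the 100 members and the 9500 other eligible genes, with 95% exact binomial intervals. The intervals treat genes as independent draws and test nothing. They are apart for coding length under 1000 nucleotides, 1 coding exon and no ATG in the leader. They are also apart for A at −3, GC at +4 and +5, and opposite-strand overlap, while G at +4 is at 57% and 57.9%.

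Gene structure and codon use differed as well. The median member had 2 coding exons, against 7 in the other eligible genes, and 31% of the members (22.1% to 41.0%), against 10.4% of the others, had a single coding exon. The share was 25.6% in the 82 members that are not proline-rich. The median GC share at the wobble position of codons was 44.0% in the members and 41.1% in the others. Codon adaptation, the likeness of codon use to that of the 113 ribosomal protein genes on a scale up to 1, had a median of 0.707 in the members and 0.682 in the others. An annotated gene on the opposite strand overlapped 13% of the members and 28.5% of the others, and whether the counting used strand is not stated. Over all eligible genes the median ratio was 0.172 with such an overlap and 0.170 without. Placement in the endomembrane system, as stated in the TAIR notes of the annotation, applied to 20 of the 100 members and to 6.84% of the others, and 8 of these 20 were proline-rich. The members lay on all chromosomes, with 24, 15, 25, 16 and 20 on chromosomes 1 to 5.

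Some members share sequence with other genes, so reads from the shared stretches also fit another gene. At least 20% of the 28-base words of the coding sequence occurred in another gene for 13 members, against 3.17% of the other eligible genes, and 7 of the 13 were proline-rich. For 21 members the share was at least 10%, and in 2 of them, EXT3 and EXT10, the gene holding most of these words is an antisense locus with 0 footprints. Of the remaining 19, 6 have a partner that is a member too, so that their sum cannot fall below the lowest member ratio, and EXT6 with AT5G06630 and HRGP1 with AT3G54580 appear in both directions. The other 13 have a partner outside the list, which therefore has a lower ratio by the choice of members. In all 13 of these the partner had more RNA-seq TPM than the member. Summing both genes left 2 of the 13, XW6 and AT4G08400, at or above the lowest member ratio, and the median of the 13 sums was 0.93. By arithmetic a sum lies between the ratios of its genes and weighs the gene with more RNA more. The fall of these sums therefore says nothing about how reads were assigned.

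**Figure D5:**
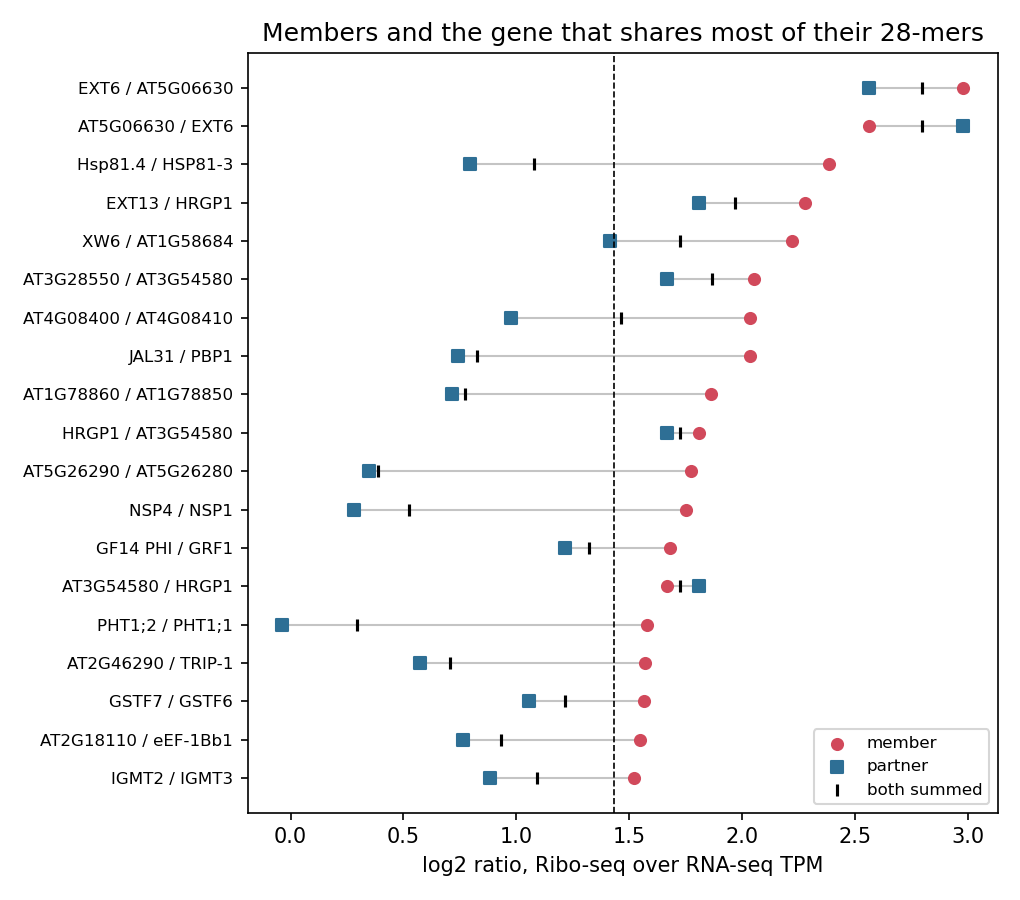
Log2 ratios of 19 members (circles), of the gene that shares most of their 28-base words (squares) and of both genes summed (ticks), highest member at the top. In 6 rows both genes are members, so the tick must lie right of the dashed line of the lowest member ratio, 1.43, and of the other 13 rows 2 have a tick right of it.

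The values of single pairs were as follows. Of the words of EXT6 36.4% occurred in another gene, most of them in AT5G06630. Both were members, and together they had a ratio of 2.80. HRGP1 and AT3G54580 were likewise both members and reached 1.73 together. XW6 had 58.2% of its words in other genes and shared most with AT1G58684, itself at 1.42, and the pair stood at 1.73. Hsp81.4, with 38.2% of its words in other genes, shared most with HSP81-3, which had 360.83 TPM in Ribo-seq and 208.02 TPM in RNA-seq, and the pair stood at 1.08. NSP4 and NSP1 together stood at 0.53, PHT1;2 and PHT1;1 at 0.29, GSTF7 and GSTF6 at 1.22, and IGMT2 and IGMT3 at 1.09. JAL31, with 13.4% of its words in other genes, stood at 0.83 together with PBP1. Footprints are shorter than the read pairs of RNA-seq. Expected counts were whole numbers in all 100 members, and 18 of the 9600 eligible genes had counts that are not whole. The part that the assignment of reads between near-identical genes has in these ratios was not tested. Words of 100 bases were shared less, with 6.30% for Hsp81.4, 21.8% for NSP4 and 39.4% for PHT1;2. AT3G52060, AT3G06470 and ATRZ-1A overlap another annotated gene on the same strand.

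Isoforms are a further limit, because RSEM weights the lengths of a gene's isoforms by their abundance in each assay. The length in Ribo-seq and the length in RNA-seq differed by over 0.01 on the log2 scale for 15 members and for 18.8% of the other eligible genes. AT4G08400 had 1328.6 nucleotides in Ribo-seq and 939.7 in RNA-seq, and its ratio was 2.04 in TPM and 2.63 in CPM, which scales counts to the library total and has no length term. Its neighbour AT4G08410 had 1917.1 nucleotides in Ribo-seq and 879.84 in RNA-seq, which left it outside the list at 0.98, although it had a ratio of 2.23 in CPM. EXT12 moved the other way, with 2.59 in TPM and 2.34 in CPM.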

How the data were processed

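The data are 6 Ribo-seq and 6 RNA-seq libraries of Col-0 seedlings. The submitters' processing notes list STAR, RSEM 1.3.1 and Bowtie2 2.3.4.1. The way libraries were combined, the genome build and the annotation are not given in the sources used. The authors deposited 1 table per assay with expected counts (estimated, not normalized), TPM and FPKM by RSEM, and with coding lengths. From these deposited values the TPM and the expected counts entered the analysis, and the FPKM did not. All 9600 eligible genes matched a TAIR10.1 transcript by ID. Of single-isoform genes, 100% had the coding length of the table.

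Counting intervals of a ratio are exact 95% binomial intervals on footprints among footprints plus RNA-seq counts, and they cover counting error only. Intervals of a share of genes are exact 95% binomial intervals on the number of genes. They treat genes as independent draws, and genes are not replicates. No test was made, because each assay has 1 pooled value and the ratio chose the members. The interval and the ranking were tested on simulated data. Shared words of 28 and 100 bases were counted on both strands between coding sequences.

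The members and gene lists were chosen with earlier results of these data known. Named genes are the 20 highest, 5 on either side of the lower edge, the 2 highest of each function group with at least 2 members, the 5 with most RNA, the 3 longest and 3 shortest, and members that share at least 20% of their words or overlap a gene on the same strand. GRF10, GRF8, GF14 PHI, NSP5, PRP1, AT2G43150 and other members or family genes named outside this rule were chosen after their values were seen. Alternatives were a pseudocount of 1 TPM, CPM (counts scaled to the library total), whole coding length, other count and length limits, ranking by the interval's lower end, leaving out genes with shared words, and the isoform with the longest leader. Python 3.11.15, numpy 2.4.6, pandas 2.3.3, scipy 1.17.1 and matplotlib 3.10.9 were used.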

Additional observations from a re-analysis of the deposited data

How the results depend on the processing

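With 1 pooled value per gene and assay, no library could be left out. No paired analysis was possible because the tables hold 1 column per assay for all libraries, so the replicate numbers in the labels have no values of their own. Of the 100 members, 96 stayed among the 100 highest with a pseudocount of 1 TPM, 87 with CPM, 86 with counts over the whole coding length and 95 when ranked by the lower end of the counting interval. All 18 proline-rich members stayed under each of these. The filters mattered more: 53 members stayed with at least 100 RNA-seq counts, 66 with a coding length of at least 300, 55 with at least 1000 RNA-seq counts and 47 with a coding length of at least 1000, where the last pair of counts are all the members that pass the filter. Leaving out genes that share 20% or more of their words kept 87, which are again all that pass, and 11 of the 18 proline-rich ones. The median ratio of the members was 1.57 with a pseudocount of 1 TPM, 1.71 in CPM and 1.44 with whole coding lengths, beside 0.16, 0.16 and -0.11 for all eligible genes, and under each of these settings all 100 lay above the 95th percentile of eligible genes. With TPM rescaled to nuclear genes, chosen after seeing the data, the median was 1.15. All 100 stayed there because every ratio shifts by about the same amount, so this setting could not change the list much. No member had a ratio under 0 with any of the first 3 settings. Of 18 further genes outside the list that the text names, 2 changed sign, both with whole coding lengths: LRX3 to -0.076 and NSP1 to -0.020. With the isoform of the longest leader, 50% of the members and 29.1% of the other eligible genes had no ATG in it, and GC at +4 and +5 was found in 37% of the members and 24.0% of the others. Without the 18 proline-rich members, a setting chosen after seeing the data, the others had a median RNA-seq level of 20.8 TPM, a median leader of 184.5 nucleotides, A at −3 in 65.9% and GC at +4 and +5 in 41.5%, and the values for length, leader ATGs and coding exons stand in the text above.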

Other observations

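The following families were put together after the values had been seen, and the eligible median of 0.17, which is not matched for length, serves as their yardstick. For their counts of members the share over all eligible genes is 1.04%. All 23 eligible glutathione S-transferases lay above it, with a median ratio of 0.88, although only 3 were members. Of 35 eligible genes annotated to the peroxidase superfamily, 34 lay above it, with a median of 0.95 and 2 members. The 4 eligible SWEET genes ran from 0.87 to 1.60, and the 4 eligible genes annotated as ER retention receptors from 0.85 to 1.52, with 2 members each. Pentatricopeptide repeat proteins, by contrast, had a median of 0.05 over 82 genes and 1 member, emb1796 at 1.68. RNA-binding proteins of the RRM or glycine-rich type had a median of 0.06, with 59 of 129 genes above the eligible median and 4 members.

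Among the 17721 nuclear genes that did not pass the filters, 882 had a ratio at or above that of the lowest member. Of these, 78 had a coding length of at least 600 and from 100 to under 500 RNA-seq counts, and 52 had enough counts but shorter coding sequences.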
